A study of Mus musculus with 847 samples.

Results

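The genes described here encode the proteins of the cytosolic ribosome. They were taken as every symbol of the count table that begins with Rpl or Rps followed by a digit, or by p and a digit, leaving out the 10 Rps6k kinase genes and 6 symbols that end in -ps and a number. This rule gave 85 genes out of 21076 in the table, 52 named for the large subunit (Rpl) and 33 for the small subunit (Rps). Of these, 82 averaged at least 5 CPM (counts per 1000000 counted reads) and passed the filter on low counts in every region; Rpl3l, Rpl39l and Rpl10l did not. Rpsa, Fau and Rack1, which also belong to the ribosome, fall outside the rule and were kept as a separate list. Rps19bp1 meets the rule by its symbol, but names a protein that binds the ribosomal protein S19 and is not itself part of the ribosome.

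The study sequenced mRNA from 15 brain regions of 59 mice of the C57BL/6JN strain, with 1 library per region and mouse and 847 libraries in all. Females and males, 5 of each, were taken at 3, 12, 15 and 18 months, and 5 females and 6 males at 21 months. At 26 months there were 5 males and at 28 months 3 males, with no females at those ages. All mice share the one strain, and no treatment or transgene is named in the labels. A region had 51 to 59 libraries, and a library had 481444 to 26756735 counted reads (median 6716032). One library stood apart: that of mouse 52, labelled entorhinal cortex, had 21510 CPM summed over 6 oligodendrocyte markers, against 170 to 16430 in the other libraries with that label. Counts of called members in entorhinal cortex are given with and without it.

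A cytosolic ribosome joins a small subunit, which reads the messenger RNA, to a large subunit, which forms peptide bonds. Each subunit carries ribosomal RNA and one copy of most of its proteins, so the messenger RNAs of these proteins are usually abundant and made in step. Many of them begin with an unbroken run of C and T bases, the terminal oligopyrimidine tract, through which mTOR signalling controls their translation. In the brain, ribosomes sit in cell bodies, dendrites and glial processes, and a few members have close relatives (paralogs) whose use differs between tissues.

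RefSeq start regions (GRCm38.p6) were matched by symbol for 65 members. A run of at least 8 C or T bases (any order, sense strand) touching the window from 10 bases before to 15 after a start was found in 30 of them, or 46.2%, against 18.1% of the 15922 genes of the table with a start region. The 30 bases from 10 before the start are shown for 6 members of the age and region results that carry such a run, and for both members whose counts fell with age, which do not. Capitals mark the longest run of C and T.
Rpl14 (chr9:120571507-120571536, plus strand): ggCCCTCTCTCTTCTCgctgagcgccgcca
Rpl13a (chr7:45128726-45128755, minus strand): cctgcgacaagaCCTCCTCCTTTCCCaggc
Rps6 (chr4:86857348-86857377, minus strand): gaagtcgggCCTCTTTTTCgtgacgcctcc
Rps9 (chr7:3704031-3704060, plus strand): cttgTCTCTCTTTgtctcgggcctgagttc
Rps27 (chr3:90213629-90213658, minus strand): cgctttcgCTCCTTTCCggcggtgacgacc
Rpl22l1 (chr3:28805498-28805527, plus strand): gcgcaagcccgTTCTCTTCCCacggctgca
Rpl7l1 (chr17:46782637-46782666, minus strand): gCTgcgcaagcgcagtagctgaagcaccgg
Rps19bp1 (chr15:80264287-80264316, minus strand): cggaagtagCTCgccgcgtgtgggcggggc
The longest run is 14 bases in Rpl14, 10 in Rps6 and Rpl22l1, 3 in Rps19bp1 and 2 in Rpl7l1. Not all members that rose with age carry a run of 8: the longest is 7 bases in Rps19, 6 in Rps23 and 2 in Rps3. A match describes these letters alone.

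Most members were abundant in every library. Of the 85, 79 averaged at least 50 CPM over all libraries, and the mean of the middle member was 154 CPM. Rpl3, which helps build the peptidyl transferase centre of the large subunit, had the highest mean, with 494 to 1349 CPM over the libraries (median 788). Lengths are those of a single annotated protein-coding transcript per gene, picked by its APPRIS principal rank and then by the longest coding sequence. Per kilobase of that transcript, Rps29 led with 777 CPM per kb, followed by Rps27 with 660 and Rpl3 with 592. The acidic stalk proteins, which recruit elongation factors to the large subunit, stood at 204 (Rplp0), 486 (Rplp1) and 157 (Rplp2) CPM per kb. Rpl41, whose coding sequence of 75 bases is among the shortest known in mammals, stood at 589 CPM per kb. Rps6, the substrate of the S6 kinases, stood at 233 CPM per kb.

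The paralogs ranged from abundant to a few reads in all. Rpl22l1 had a higher mean than its parent Rpl22 both per library, at 144 against 87.5 CPM, and per length, at 261 against 42.7 CPM per kb. Rpl36al stood at 41.0 CPM per kb against 172 for its X-linked parent Rpl36a, and Rpl7l1 at 19.6 against 175 for Rpl7. Rps27l stood at 52.2 and the retrocopy Rps27rt at 28.2 CPM per kb against 660 for Rps27. Rpl3l, a gene of heart and skeletal muscle, averaged 0.242 CPM and had at least 1 read in 547 of 847 libraries. Rpl39l had 157 reads in all and Rpl10l 8, both being known from the testis, against 510121 for Rpl39 and 1125504 for Rpl10. Ribosomal protein genes have many near-identical processed pseudogenes, and Rps27 and Rps27rt are near-identical to each other, so single values of such genes depend on how shared reads were counted, which is not given in the sources used here.

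Together the members took 1.20% to 2.52% of the counted reads of a library, with a median of 1.54%. The order of the region medians ran from the hypothalamus (1.80%) through olfactory bulb (1.75%), subventricular zone (1.69%) and corpus callosum (1.65%) to thalamus (1.43%), visual cortex (1.42%) and motor cortex (1.37%). The hypothalamus thus stood 1.32 times as high as motor cortex by their medians, but its libraries ran from 1.50% to 2.26%, and neighbours in the order overlapped widely. In bulk tissue, fewer cells of a type and less RNA per cell cannot be told apart.

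**Figure D1:**
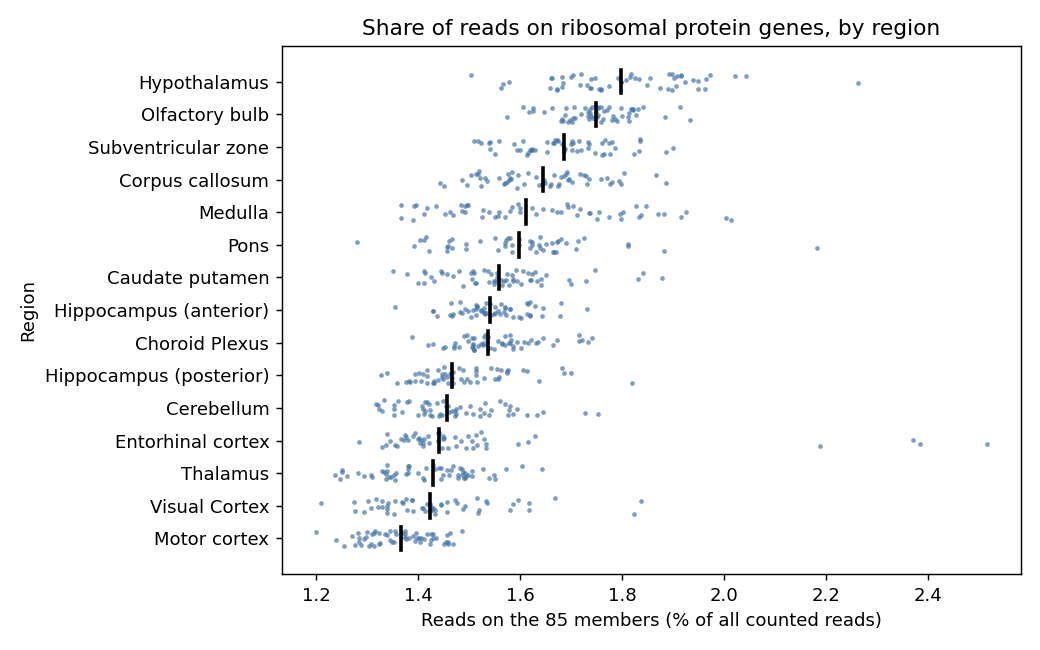
Share of counted reads on the 85 members in each library (points, % of all counted reads) by region, with a black line at each region's median. Region medians lie between 1.37% in motor cortex and 1.80% in the hypothalamus, and a few entorhinal cortex libraries lie above 2.3%.

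Levels differed little between regions for most members. Each region was tested against the mean of the other 14 in a joint fit of all 847 libraries (edgeR's quasi-likelihood test, Benjamini-Hochberg adjustment), with age and sex as covariates. Only 7 of 1230 pairs of a member and a region, or 0.569%, had an adjusted p under 0.05 with a log2 difference of at least 0.5; over all genes tested it was 28.1% of pairs. On the adjusted p alone, 80.6% of member pairs passed, near the 84.7% of all pairs, so differences were commonly detected but small. The median size of the difference over the member pairs was 0.10 on the log2 scale.

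Rpl3 varied most across regions. It had 939 to 1349 CPM in the hypothalamus (median 1126), 791 to 1211 in the subventricular zone (median 995), 569 to 713 in motor cortex (median 621) and 494 to 705 in the cerebellum (median 548). No cerebellar library reached the lowest hypothalamic one. The gene lies on chr15:80077791-80091868 (GRCm38, minus strand). Its cerebellar level was lower than the mean of the other regions by a log2 difference of -0.62 (SE 0.014, adjusted p = 1.94e-213). The cerebellum also had the low calls of Rps2, a small-subunit protein at the messenger RNA entry site (log2 difference -0.60, SE 0.021, adjusted p = 9.11e-127), and Rpl4, which lines the exit tunnel (-0.50, SE 0.013, adjusted p = 1.10e-182). The Rpl4 difference fell short of the minimum size with no filter on low counts (-0.47) and with the mice that have all 15 regions (-0.49). Rpl3, Rps2 and Rpl4 were the only members called lower in a region in the reported fit. Rpl3, Rpl22l1 and Rps15a had the widest spread of region means, and Rpl5, Rps15 and Rps7 the narrowest. Rps15a ran from a mean of 64.5 ± 8.17 CPM (SD, n = 58) in caudate putamen to 114 ± 7.26 CPM (SD, n = 58) in olfactory bulb. Rpl5, which carries 5S ribosomal RNA, ran only from 127 ± 8.07 CPM (SD, n = 58) in caudate putamen to 151 ± 8.73 CPM (SD, n = 58) in olfactory bulb.

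The hypothalamus had the highest Rpl22l1 and the lowest Rpl22. These paralogs encode alternative forms of one large-subunit protein, and the Rpl22 protein is known to repress Rpl22l1. Rpl22l1 had 172 to 329 CPM in the hypothalamus (median 227), against 115 to 216 in the medulla (median 165), the next highest region. Rpl22 had 40.5 to 82.6 CPM in the hypothalamus (median 68.7) and 92.0 to 141 in olfactory bulb (median 109), where it was highest. Reads of Rpl22l1 per read of Rpl22 ran from 2.42 to 5.50 in hypothalamic libraries (median 3.36). The next highest median was 1.95 in the subventricular zone, with a range of 1.36 to 2.83, and the lowest was 1.20 in olfactory bulb, with a range of 0.930 to 1.43. The hypothalamic and olfactory ranges did not overlap. Against the mean of the other regions, hypothalamic Rpl22l1 was higher by 0.63 on the log2 scale (SE 0.019, adjusted p = 2.28e-153), and Rpl22 differed by -0.48 (SE 0.020, adjusted p = 5.37e-94), just under the minimum size for a call.

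**Figure D2:**
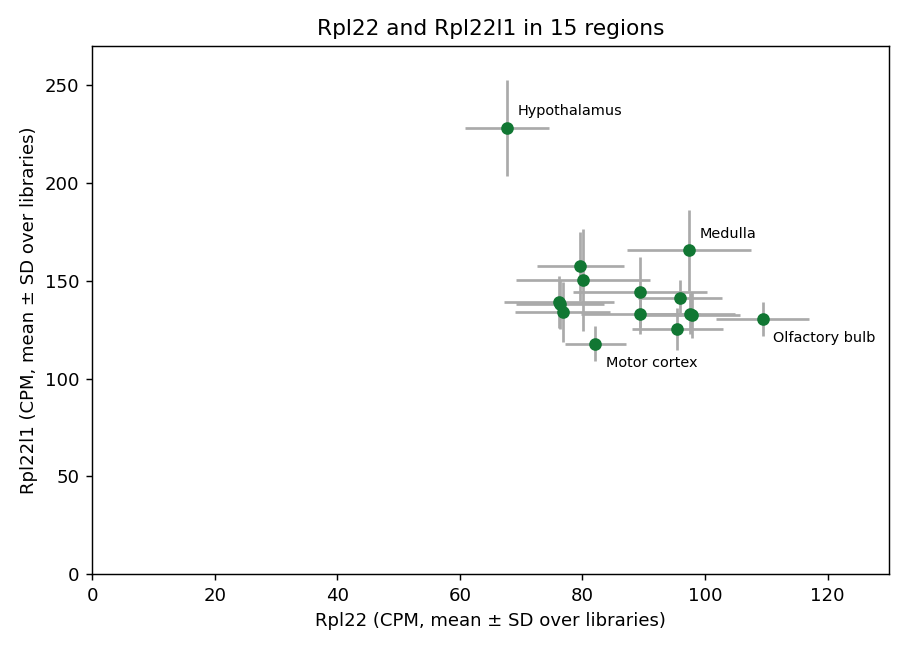
Mean level of Rpl22 (horizontal, CPM) and Rpl22l1 (vertical, CPM) in 15 regions; points are region means and bars 1 SD over libraries. The hypothalamus lies apart, with 67.7 CPM of Rpl22 and 228 CPM of Rpl22l1.

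Rpl31, a protein at the rim of the exit tunnel, was called higher in caudate putamen (log2 difference 0.59, SE 0.021, adjusted p = 2.89e-118) and in corpus callosum (0.53, SE 0.022, adjusted p = 2.34e-98; 0.47 and not called with males alone). It had 191 to 391 CPM in caudate putamen (median 289) and 201 to 358 in corpus callosum (median 273), against 149 to 214 in anterior hippocampus (median 182), where it was lowest. Exons of Rpl31 overlap exons of Tbc1d8 on the opposite strand, and the libraries are unstranded. Tbc1d8 was itself highest in the same regions, at 131 ± 21.4 CPM (SD, n = 58) in caudate putamen and 91.8 ± 21.2 CPM (SD, n = 57) in corpus callosum, against 14.1 ± 2.47 CPM (SD, n = 57) in anterior hippocampus. Reads of these genes cannot be told apart where they overlap, and the part of Tbc1d8 in the Rpl31 result was not tested. Rpl36al was called higher in the medulla (log2 difference 0.52, SE 0.019, adjusted p = 7.44e-120), with a mean of 69.6 ± 8.01 CPM (SD, n = 58) there and 39.9 ± 4.31 CPM (SD, n = 58) in caudate putamen.

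With age, members rose in some regions and hardly ever fell. The slope of log2 level per month was fitted in each region over all ages, beside sex, and adjusted over all genes tested there. Of 1230 pairs, 145 rose (11.8%) and 3 fell (0.244%), while over all genes 6.37% of pairs rose and 5.1% fell. At least 1 call for a rise came from 63 of the 82 members, and 17 members had no call in any region. The slopes were shallow: the middle rise among the called pairs was 0.0064 on the log2 scale per month, and the range was 0.0024 to 0.014. Both subunits took part, with rises in 79 of 735 large-subunit pairs (10.7%) and 66 of 495 small-subunit pairs (13.3%).

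Of the 145 rises, all but 4 came from 7 regions. In olfactory bulb 39 of 82 members rose (47.6%), against 7.78% of all genes tested there, and in the cerebellum 35 rose (42.7%), against 10.5%. In caudate putamen 17 rose against a background of 7.68%, and in choroid plexus 17 against 11.5%. In corpus callosum 11 rose against 9.64%, in motor cortex 11 against 8.39%, and in visual cortex 11 against 5.8%. Shares of members in these last regions, 13.4% each, were closer to the background. The hypothalamus had 3 (background 4.13%) and the subventricular zone 1 (4.85%). Calls also depend on the spread between libraries. The SD over a region's libraries of the median log2 CPM of the 82 members was lowest in olfactory bulb (0.066). It was 0.073 in anterior hippocampus, 0.14 in visual cortex, 0.16 in the medulla and 0.22 in entorhinal cortex. Visual cortex, with fewer rises, had a median member slope of 0.0045 per month against 0.0040 in olfactory bulb. The number of rises therefore does not rank the regions by size of slope.

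Other sets of mice and covariates moved some of these counts, and the share or number of all genes rising is given beside each. With the 34 males alone, 17 members rose in olfactory bulb (5.08%), 11 in the cerebellum (7.65%), 3 in visual cortex (4.86%), 1 in caudate putamen (4.53%) and none in choroid plexus (3.61%) or corpus callosum (6.05%). The members in visual cortex, caudate putamen, choroid plexus and corpus callosum were thus below the background in males. In motor cortex 9 members rose in males alone (731 of 13847 genes). With mice 16 to 56 alone, 36 rose in choroid plexus (10.1%), 13 in the cerebellum (7.51%), 10 in caudate putamen (3.64%) and 3 in visual cortex (2.84%). The same mice gave 44 in olfactory bulb (1040 of 13830 genes), 11 in corpus callosum (673 of 14171) and 9 in motor cortex (806 of 13795). Visual cortex also had 7 without mouse 2 (5.61%) or without mouse 17 (4.24%), and 19 with the choroid plexus markers as a covariate (5.83%). With depth and detected genes as covariates, 22 rose in the cerebellum (9.94%) and 6 in the subventricular zone (4.78%).

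No member was called in either direction in entorhinal cortex, anterior or posterior hippocampus, medulla, pons or thalamus. The share of all genes that rose was 0.186% in entorhinal cortex, 6.89% in anterior hippocampus, 4.53% in posterior hippocampus, 6.56% in the medulla, 4.62% in the pons and 2.78% in the thalamus. At an unadjusted p under 0.05, 3745 genes of any kind passed the age test in the medulla, 3559 in anterior and 2833 in posterior hippocampus. There were 2491 in the thalamus, 2489 in the pons and 1423 in entorhinal cortex. These counts over all genes do not measure how well slopes of members could be detected. A lack of calls therefore does not show that member slopes were absent. Entorhinal cortex had 0 member calls with and without the library of mouse 52. Other libraries of that region with a high share of reads on members were kept. The highest female and male libraries had 2.19% and 2.52% at 12 months, and 2.37% and 2.385% at 18 months. Medians of these groups lay between 1.41% and 1.495%. The part of these libraries in the lack of calls was not tested. With depth and detected genes as covariates, 13 members were called falling in the pons; the share of all genes falling there was 4.14% with those covariates and 1.07% without. Single-region slopes of members leaned below 0 in the medulla, where 16 of 82 were above 0, in the thalamus (18 of 82) and in the pons (23 of 82). In the cerebellum 80 of 82 slopes were above 0, and in olfactory bulb 75. The median member slope was 0.0051 per month in the cerebellum, which over 25 months amounts to 9.21%, and 0.0040 in olfactory bulb, which amounts to 7.20%. It was -0.0022 in the pons and -0.0014 in the medulla. These are medians over genes that share libraries, and the difference of these regions is tested gene by gene below.

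**Figure D3:**
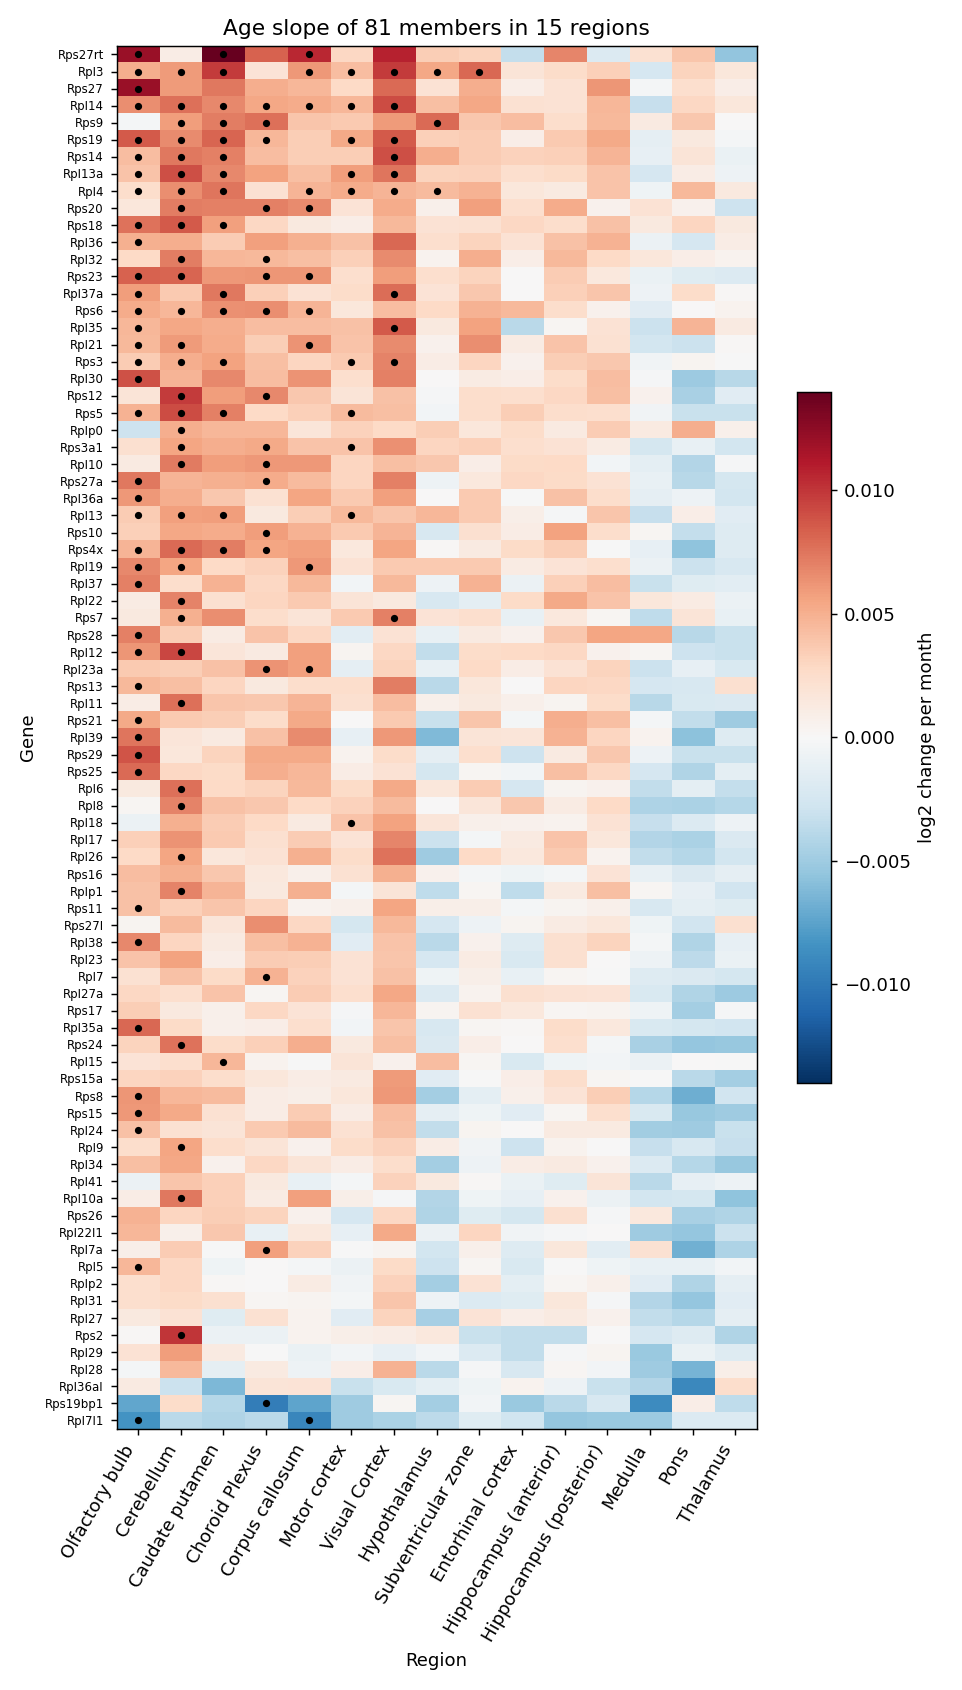
Age slope (colour, log2 change per month; red rising, blue falling) of 81 members (rows, ordered by mean slope) in 15 regions (columns, ordered by the number of members rising); black dots mark an adjusted p under 0.05. Dots gather in the 7 regions at the left, from olfactory bulb with 38 rises drawn to visual cortex with 10, while the medulla, pons and thalamus hold none.

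Rpl3 rose in the most regions, 8 of 15. In visual cortex it had 590 to 672 CPM at 3 months (median 631, n = 10) and 723, 778 and 806 CPM in the libraries at 28 months. Every library at 28 months lay above every library at 3 months. Its slope there was 0.0097 (SE 0.0014, adjusted p = 1.52e-06), and its slopes among the called regions ran from 0.0043 in motor cortex to 0.0098 in caudate putamen.

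Among the next members by number of regions were Rpl14 and Rpl4 with 7 each, Rps19 with 6, Rpl13a, Rps6 and Rps3 with 5 each, and Rps23 and Rps9 with 4 each. All of these calls were rises. Rps19 is needed for the maturation of the small subunit, Rps3 lines the messenger RNA entry channel, and Rps9 and Rps23 bear on the accuracy of decoding. In the cerebellum Rpl14 had 245 to 280 CPM at 3 months (median 257) and 287, 302 and 340 CPM at 28 months. All 28-month libraries were above the 3-month range. Rps6 rose in caudate putamen, cerebellum, choroid plexus, corpus callosum and olfactory bulb, with slopes of 0.0047 to 0.0065.

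Rps27 and its retrocopy were among the members with the steepest slopes. In olfactory bulb Rps27 had 212 to 264 CPM at 3 months (median 232, n = 10) and 226 to 281 CPM at 12 months (median 258, n = 10). At 28 months its libraries had 255, 264 and 294 CPM, so that most older libraries lay above the young median but the ranges met. Its slope was 0.012 (SE 0.0018, adjusted p = 1.77e-06). Rps27rt had slopes of 0.014 in caudate putamen (SE 0.0039, adjusted p = 0.0086), 0.012 in olfactory bulb (SE 0.0043, adjusted p = 0.041) and 0.011 in corpus callosum (SE 0.0033, adjusted p = 0.017). In caudate putamen it had 7.02 to 12.3 CPM at 3 months (median 10.7, n = 9) and 11.4, 14.5 and 16.4 CPM at 28 months, which overlap. The olfactory call of Rps27rt was lost without mouse 2 (slope 0.012), mouse 37 (0.012) or mouse 59 (0.011), with males alone (0.011) and with a choroid plexus covariate (0.011). With males alone the calls in caudate putamen (0.014) and corpus callosum (0.010) were lost as well. With near-identical sequences, Rps27 and Rps27rt are uncertain as separate genes.

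**Figure D4:**
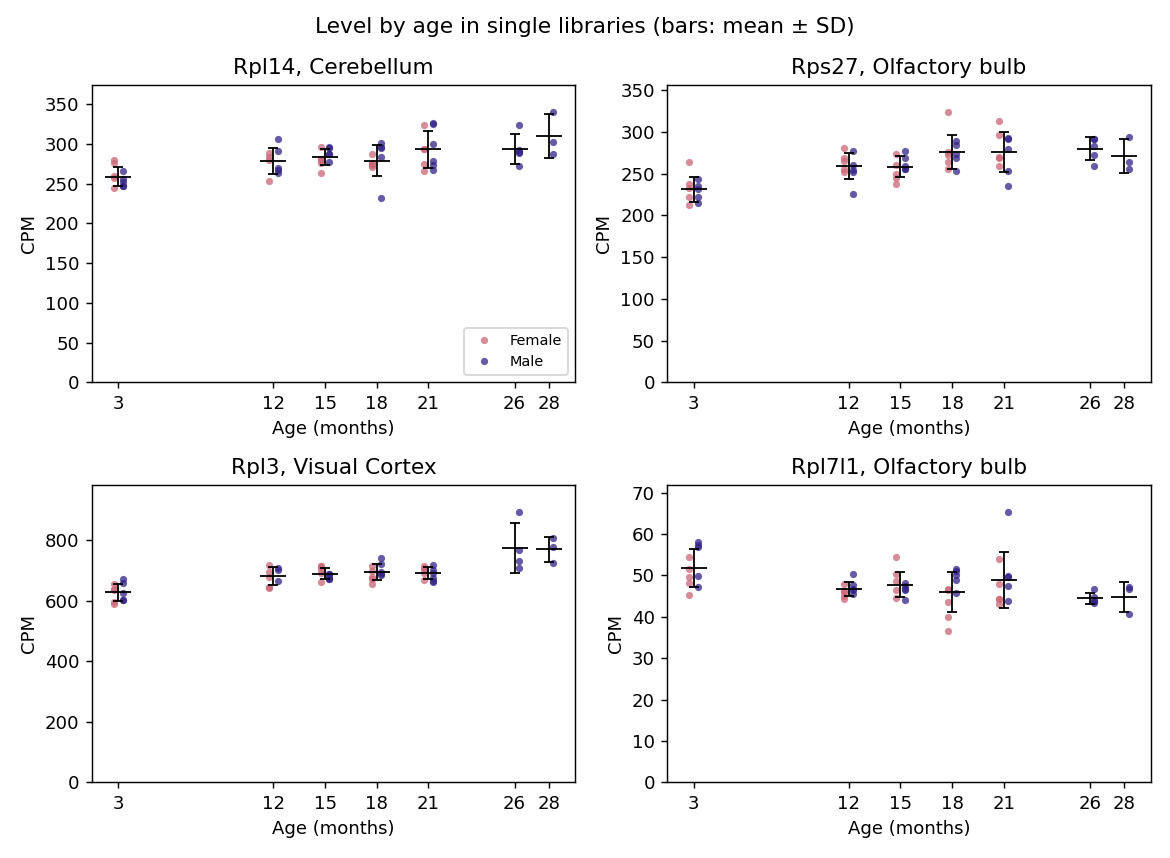
Level in CPM (vertical, from 0) by age in months (horizontal) of Rpl14 in the cerebellum, Rps27 in olfactory bulb, Rpl3 in visual cortex and Rpl7l1 in olfactory bulb; points are single libraries coloured by sex, black bars the mean and SD. Rpl14 goes from a mean of 259 CPM at 3 months to 310 CPM at 28 months, and Rpl7l1 from 51.9 to 44.8 CPM.

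Only Rpl7l1 and Rps19bp1 were called as falling over all ages. Rpl7l1, a paralog of Rpl7 that is known from ribosome assembly, fell in olfactory bulb (slope -0.0084, SE 0.0018, adjusted p = 0.00055; background 9.01% of genes falling). It fell also in corpus callosum (slope -0.0091, SE 0.0026, adjusted p = 0.010; background 8.95%), a call lost with mice 16 to 56 alone (slope -0.0076). In olfactory bulb it had 45.4 to 58.0 CPM at 3 months (median 50.8, n = 10) and 40.6, 46.6 and 47.2 CPM at 28 months, with overlapping ranges. The slope of Rpl7l1 was below 0 in all 15 regions. Rps19bp1 fell in choroid plexus (slope -0.0097, SE 0.0035, adjusted p = 0.038; background 9.28%), from 10.7 to 17.4 CPM at 3 months (median 15.0) to 11.3, 12.4 and 16.1 CPM at 28 months. This call was lost without mouse 2 (slope -0.0090), 17 (-0.0091), 58 (-0.0088) or 59 (-0.0094), with males alone (-0.013), with depth and detected genes as covariates (-0.0091) and with the choroid plexus covariate (-0.0092). The slope was -0.0046, and not called, with mice 16 to 56 alone, which leaves out the ages 12, 26 and 28 months.

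The number of members that departed from 3 months differed between the ages. All these contrasts share the 3-month libraries. Mice of 3, 15, 18 and 21 months are numbered 16 to 56, and those of 12, 26 and 28 months fall outside that run. What the numbers mark is not stated in the labels, so at 12, 26 and 28 months age and number cannot be told apart. In olfactory bulb 31 members were already higher at 12 months, against 2.63% of all genes. At 15 months the count of higher members was 7 (2.04%). The libraries of 18, 21 and 26 months gave 29 members each, against 3.51%, 5.87% and 3.5% of all genes. At 28 months, where only 3 mice contribute, it was 2 (1.71%). The share of reads on members in olfactory bulb was 1.58% to 1.76% at 3 months (median 1.67%) and 1.63% to 1.91% at 12 months (median 1.76%). Its median stayed between 1.74% and 1.81% at the later ages, so the young libraries were the low ones and no steady climb followed. Rpl30, a large-subunit protein, had the largest such difference at 12 months (log2 0.22, SE 0.040, adjusted p = 0.00044).

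In choroid plexus 41 members were higher at 21 months, against 11.4% of all genes, and none at any other age. Its libraries had 1.39% to 1.67% of reads on members at 3 months (median 1.48%), 1.53% to 1.74% at 21 months (median 1.62%), and 1.52%, 1.53% and 1.53% at 28 months. In the subventricular zone 21 members were higher at 12 months (background 0.816%) and 10 at 26 months (2.2%), while none was at 15 or 28 months. A single member had a slope over all ages. Mice of 12 and 26 months carry numbers outside the run of the 3-month mice, so age and number cannot be told apart there. In the cerebellum 11 were higher at 21 months (7.01%) and 22 at 28 months (5.1%), in caudate putamen 19 at 28 months (5.59%), and in visual cortex 18 at 26 months (3.92%). Visual cortex had only 1 at 21 months (1.99%) and 1, Rpl3, at 28 months (2.85%). In the medulla 5 members were lower at 28 months, Rps19bp1, Rpl41, Rpl35, Rpl14 and Rpl13, against 11.8% of all genes.

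Marker genes of other cells rose or fell in the same regions, and in regions where no member rose. In the cerebellum 5 of 6 microglia markers and 6 of 6 markers of activated microglia rose with age. The summed microglia markers there were 149 to 209 CPM at 3 months and 239, 307 and 333 CPM at 28 months. In choroid plexus 5 of 6 of each list rose, and so did 3 of 6 oligodendrocyte markers. In caudate putamen 4 of 6 and 5 of 6 of these microglia lists rose, and in corpus callosum 5 of 6 of each. In corpus callosum 4 of 5 astrocyte markers rose too, and 3 of 4 neuroblast markers fell. In visual cortex 4 of 4 blood and 4 of 5 granulocyte markers rose, and in motor cortex 4 of 5 granulocyte markers. The summed blood markers in visual cortex were 7.46 to 55.1 CPM at 3 months and 10.0, 31.3 and 183 CPM at 28 months. In olfactory bulb, with the most rising members, 1 of 6 microglia and 2 of 5 activated microglia markers rose. In the medulla the summed microglia markers were 256 to 351 CPM at 3 months and 400, 468 and 477 CPM at 28 months, and no member rose. Among the regions with no rising member, markers of activated microglia rose for 6 of 6 in the medulla and pons and 5 of 6 in the thalamus. The count was 4 of 5 in anterior and in posterior hippocampus, and 0 of 6 in entorhinal cortex. In the hypothalamus and the subventricular zone, with few rising members, it was 5 of 6 each. The part of these cells in the member slopes was not tested. Libraries labelled choroid plexus held the choroid plexus markers at 1886 to 6801 CPM at 3 months, and neuron markers at 4891 to 6348 CPM, a level like that of olfactory bulb (5265 to 6265 CPM).

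Other parts of the translation apparatus were counted in the same way, over the same fits. Of the 3 ribosome genes outside the rule, 5 of 45 pairs rose and none fell, with Fau called in 3 regions and Rpsa in 2. The mitochondrial ribosome translates only the mitochondrial genome. Genes named for it were taken by symbol alone (Mrpl or Mrps and a digit), whether or not the product is part of that ribosome. They rose in 14 (1.20%) and fell in 57 (4.87%) of 1170 pairs, against 6.37% and 5.1% of all pairs. By these symbols, Mrps36 fell in 5 regions and Mrpl21, Mrpl42 and Mrps12 in 4 each, while Mrpl2 rose in 4. Of ribosome assembly genes, 17 pairs rose (2.31%) and 34 fell (4.63%) of 735. Falls in both lists were thus near the background. Rrp12, a factor of subunit export, fell in 4 regions and Ubtf, a factor of ribosomal RNA transcription, in 3, while Nop14 rose in 5. Translation factors were split, with 31 rises (5.59%) and 26 falls (4.68%) in 555 pairs. Eif5, which triggers GTP hydrolysis at the start codon, rose in 11 regions and Eif4b, a helicase cofactor, in 6, while Eif2s1 and Eif4g2 fell in 6 each. Of mTOR and S6 kinase signalling, 18 pairs rose (6.67%) and 19 fell (7.04%) of 270, both near the background. Rps6ka1 rose in 10 regions, and Ddit4, an inhibitor of mTOR, and Mycn fell in 7 each. Mtor, Rptor, Rps6kb1 and Rps6kb2 were called in no region. The named ribosomal pseudogenes had no call in 44 pairs.

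The relation of member slopes to level and length differed between regions. Across the 82 members, Spearman's rho of slope with mean CPM ran from -0.029 in the medulla to 0.60 in the hypothalamus, with 0.57 in caudate putamen, 0.34 in the cerebellum and 0.17 in olfactory bulb. With transcript length it ran from -0.40 in olfactory bulb to 0.23 in motor cortex, with 0.20 in the cerebellum. These are correlations across genes of the same libraries, which are not independent replicates. Members with a run of at least 8 C or T near the start rose in 53 of 450 pairs (11.8%), and those with a start region but no such run in 49 of 480 (10.2%). Falls numbered 0 and 3.

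Few slopes were distinct from those of the other regions. The age by region term of the joint fit called 2 of 1230 member pairs (0.163%), against 1.4% of all pairs; 101 member pairs had an unadjusted p under 0.05. The slope of Rps2 in the cerebellum exceeded the average slope elsewhere by 0.0098 (SE 0.0027, adjusted p = 0.021). It had 92.4 to 115 CPM at 3 months (median 107, n = 10) and 124, 130 and 132 CPM at 28 months, with no overlap. In other regions its slope lay between -0.0042 in the thalamus and 0.0014 in the hypothalamus. Rpl3 in the medulla went the other way, with a slope of -0.0064 relative to the other regions (SE 0.0018, adjusted p = 0.030). It had 723 to 967 CPM at 3 months (median 834, n = 10) and 755, 781 and 801 CPM at 28 months, within the young range. Both calls were lost when only mice 16 to 56 were used, at 0.0085 for Rps2 and -0.0071 for Rpl3, and the Rps2 call with males alone, at 0.0082. The different numbers of rising members per region therefore do not show that the regions differ for most members.

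Many members differed by sex in the hypothalamus. At the ages from 3 to 21 months, which both sexes have, 42 of 82 members were higher in males there and none lower, against 3.25% of all genes higher in males. Reads on members made up 1.50% to 1.91% of female hypothalamic libraries (median 1.72%, n = 24) and 1.57% to 2.26% of male ones (median 1.89%, n = 25). The ranges overlap, with the male median near the top of the female range. In the other 14 regions 4 member pairs were called, against 2.84% of all pairs. These were Rpl14 and Rpl3, higher in males, and Rpl7a, lower, in the medulla, and Rpl36al, lower in males, in choroid plexus.

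The smallest adjusted p in the hypothalamus belonged to Rpl14. It had 299 to 397 CPM in females (median 362) and 345 to 460 CPM in males (median 405), a difference of male minus female of 0.15 on the log2 scale (SE 0.025, adjusted p = 0.00016). Rps26, a protein at the exit of messenger RNA, had 108 to 158 CPM in females (median 128) and 117 to 176 CPM in males (median 149). Its difference was 0.20 (SE 0.036, adjusted p = 0.00045). Rps14, Rps18 and Rpl21 followed with 0.18, 0.19 and 0.15 (adjusted p of 0.00063, 0.0017 and 0.0022). Of the 4 X-linked members, Rpl36a and Rpl39 were called in 1 region each, higher in males in the hypothalamus, and the medians of their differences over regions were -0.00063 and -0.0041. Rpl10 and Rps4x were called nowhere.

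**Figure D5:**
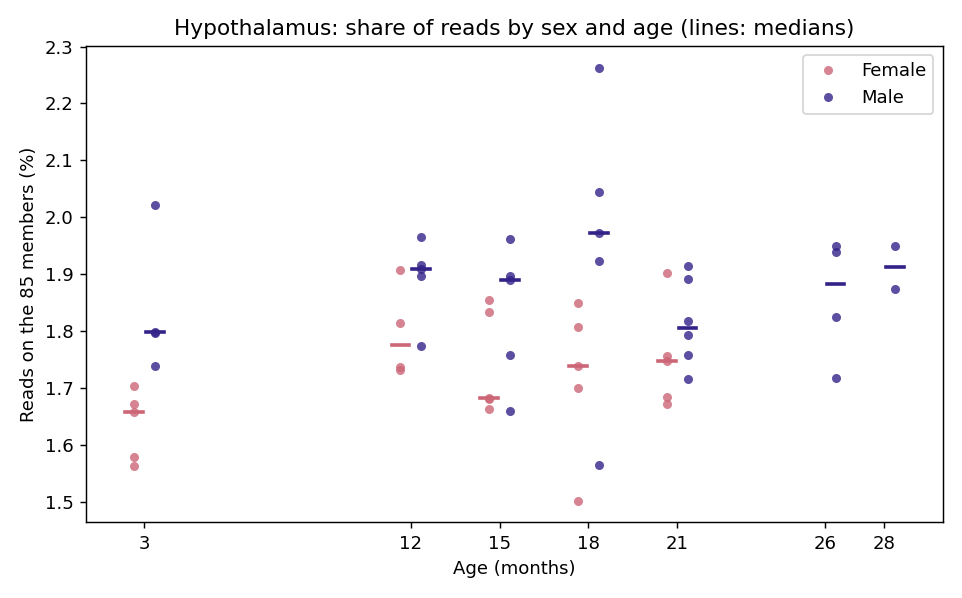
Share of counted reads on the 85 members (vertical, %) in hypothalamic libraries by age in months (horizontal) and sex (colour), with short lines at the medians. The male median lies above the female one at each age from 3 months (1.80% against 1.66%) to 21 months (1.81% against 1.75%).

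Depth and some marker genes also differed between the sexes there. Female hypothalamic libraries had 1437197 to 17607138 reads (median 7327626) and male ones 889661 to 13819694 (median 5197085). The summed oligodendrocyte markers ran from 3284 to 15750 CPM in females (median 7460) and from 2633 to 12840 CPM in males (median 5568), but none of the 6 markers was called. Of 6 microglia markers 2 were called lower in males, and 1 of 6 markers of activated microglia. The summed microglia markers were 276 to 518 CPM in females (median 385) and 303 to 427 CPM in males (median 351). One of 6 choroid plexus markers was lower, and 1 of 6 neuron and 1 of 4 neuroblast markers higher. Of the 37 translation factors, 5 were higher in males. The part of depth and these cells in the sex result was not tested. Outside the 12-month group, females and males carry separate runs of mouse numbers, whose meaning the labels do not state. Among the 9 hypothalamic libraries at 12 months, numbers alternate between the sexes. The male share there was 1.77% to 1.97% (median 1.91%, n = 5) and the female 1.73% to 1.91% (median 1.78%, n = 4). With so few libraries, a lack of calls does not show that the sexes were alike. No member was called at that age alone, by edgeR's test, against 1.34% of all genes higher in males and 0.202% lower. The median member difference was 0.037 on the log2 scale, against 0.11 over the ages from 3 to 21 months.

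No member passed the test for a different age slope in females and males. The age by sex term called 0 of 1230 pairs by edgeR's quasi-likelihood test, against 0.0694% of all pairs. At an unadjusted p under 0.05 there were 33 member pairs, 20 with the higher slope in females and 13 with the higher slope in males. The estimated slope was higher in males for 74 of 82 members in motor cortex and higher in females for all 82 in visual cortex. The smallest adjusted p was 0.14, for Rpl7l1 in visual cortex, then 0.20 for Rpl37a and 0.27 for Rpl7 in motor cortex, 0.35 for Rpl3 in the hypothalamus and 0.36 for Rpl26 in motor cortex.

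Within a region, most members went up and down together from library to library. Fitted age and sex terms were first removed from the log2 CPM of each member within each region. Pearson's r was then taken between what was left of a member and the median of the other members, over the libraries of a region. The likeness of a member was the median of the 15 values. Its median over 82 members was 0.80, and 76 members exceeded 0.5. Rps23 (0.91), Rpl32 (0.90) and Rps27a (0.88), the last made as a fusion with ubiquitin, were most like the rest. The least alike were Rpl7l1 (-0.12), Rps19bp1 (0.20), Rpl4 (0.33), Rpl3 (0.38) and Rps27l (0.40). Rpl7l1 and Rps19bp1 thus stood at the end of this order as well as among the falls, and Rpl3 and Rpl4 among the members with the most rises. All members of a library share its depth and composition, so these r are a description.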

How the data were processed

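The deposited values are raw read counts per gene symbol and library, made by the authors; per the submitters' processing notes, Trim Galore 0.3.7 and STAR 2.5.3a were used with GRCm38, and the handling of reads shared by near-identical genes is not given in the sources used here. Per the labels' protocols, RNA was isolated with RNeasy, cDNA made with Smart-Seq2 and libraries with Nextera XT, without strand. The members and lists were chosen with earlier results of these data known. Regions were fitted alone (age in months or as a factor, with sex) and jointly (level, age by region) with edgeR 4.0.16 in R 4.3.3, using TMM factors, filterByExpr and glmQLFTest on the counts, and Benjamini-Hochberg adjustment over all genes of a region and contrast at 0.05. A level call also needed a log2 difference of 0.5. CPM uses the total of all counted reads as deposited. Fits were tested on simulated counts with a fixed dispersion and genes of all levels, so recovery of the members themselves was not measured. With cerebellar libraries, 11.1% of age slopes of 0.01 per month were recovered and 95% of slopes of 0.03. Of slopes in olfactory bulb apart from the other regions by 0.02, 65.6% were recovered. At the middle called rise of members, 0.0064, a lack of calls thus does not show a lack of slope. Coordinates and lengths are from GENCODE M21 and start regions from RefSeq, both matched by symbol on GRCm38.

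Named members, of at least 5 CPM, were the 10 called for age in most regions, the steepest called slopes, the widest and narrowest spreads over regions, the called levels and slope differences, the 5 smallest adjusted p for sex and age by sex, those most and least like the rest, and fixed paralogs. Other values named were chosen after they were seen. A member named by this rule and a gene of a comparison list are not reported here; counts over members include that member, and the plot of slopes leaves it out. Alternatives were RLE factors, no filter, DESeq2 1.42.0, males alone, mice 16 to 56, 12-month mice, covariates, TMM without the members, single mice left out, and limma 3.58.1 with the mouse as a block, the last chosen after seeing the data. Samples of a mouse share its number, so the regions are paired by animal. Rpl22l1, Rpl31, Rps27 and others with overlapping or near-identical genes are uncertain as single genes. Libraries carried no molecular identifiers, so the spread between mice was used as the error.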

Additional observations from a re-analysis of the deposited data

Results flagged for a closer look

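The share of reads on members was checked for a library far from the rest of its group. This was done in 159 groups of 4 to 6 libraries of a region, age and sex. Chance alone marks about 1 group in 20, and 7 libraries were marked. Smaller groups were not checked, such as the 3 entorhinal cortex males of 12 months, with a library of 2.52%. In caudate putamen the male of 21 months numbered 32 had 1.88% (the others 1.54% to 1.62%), and the male of 26 months numbered 11 had 1.35% (the others 1.56% to 1.62%). In entorhinal cortex the female of 18 months numbered 39 had 2.37% (the others 1.37% to 1.63%), and the female of 21 months numbered 40 had 1.62% (the others 1.34% to 1.40%). In the medulla the male of 12 months numbered 3 had 1.42% (the others 1.68% to 1.75%). In motor cortex the female of 15 months numbered 50 had 1.41% (the others 1.25% to 1.29%), and in visual cortex the female of 3 months numbered 53 had 1.31% (the others 1.43% to 1.45%).

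By the test of the difference itself, the age slope of Rps2 in the cerebellum differed from the mean of the other regions by 0.0098 on the log2 scale per month, and that of Rpl3 in the medulla by -0.0064.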

How the results depend on the processing

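Rises with age numbered 145 pairs in the reported fits and 44 with males alone, which has fewer mice and no sex term; they ranged from 129 to 151 when single mice were left out. Falls numbered 3, and 7 with DESeq2, 15 with depth and detected genes as covariates (13 of them in the pons), 5 with males alone, 5 with mice 16 to 56 and 2 to 6 without single mice. At single ages 335 pairs were higher than at 3 months and 112 with males alone (301 to 308 without 1 mouse of 28 months); 18 were lower, 11 with no filter and 10 to 11 without 1 of those mice. For level, 4 pairs were higher and 3 lower, none in either direction at a minimum log2 difference of 1, 465 and 526 with no minimum, and 9 and 8 with no filter, which adds members of few reads. For slopes apart from the other regions, 1 pair rose and 1 fell; limma-trend in place of edgeR called 2 rising, males alone 0 rising and 4 falling, and mice 16 to 56 0 in both directions. For sex, 44 pairs were higher in males and 2 lower; 12-month mice alone called 0 and 0, and mice 16 to 56 left 1 lower. The causes of these changes were not tested.

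Regions were paired by mouse: with the replicate block (limma-trend), 2 slopes apart rose and 1 fell, and 4 levels were higher and 3 lower. The planned edgeR fit of that block was not run. The age slopes and sex differences compare different mice, so no block applies to them. Of 240 refits of single named pairs, 213 kept their call and direction, 27 lost the threshold and none reversed. At the lowest depth of 481444 reads, 1 read is worth 2.08 CPM, so Rpl3l, Rpl39l and Rpl10l cannot be compared between groups.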
